A study of Mus musculus with 2 samples.

Results

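The genes examined were 10 WNT feedback and target genes, Axin2, Lef1, Tcf7, Nkd1, Lgr5, Notum, Sp5, Znrf3, Rnf43 and Wif1, in newborn mouse ureters treated with the SHH pathway blocker cyclopamine. Every probe whose gene name on the array was one of these names was taken, which gave 15 probes for the 10 genes, of 39429 probes for 30011 genes. Where a gene had several probes, the brightest on average over all 4 channels stood for the gene. Ureters were dissected from wildtype NMRI pups at P0 and kept on membranes for 18 h. The medium held either 10 µM cyclopamine, which inhibits the SHH signal transducer SMO, or solvent, given as DMF at 1 in 1000 in the labels, whereas the methods name ethanol as the solvent of cyclopamine. RNA of pooled ureters was compared on 2 two-colour arrays, each with a cyclopamine pool against a control pool of the same sex. Replicate 1 held female pools with cyclopamine in the red channel, and replicate 2 held male pools with cyclopamine in the green channel. Sex, dye orientation and replicate therefore cannot be told apart. A source name in the labels gives IWP-2, an inhibitor of WNT secretion, for the treated channel, while titles, treatment entries and protocol give cyclopamine. The samples were analysed as cyclopamine. The labels alone do not settle the disagreement, which touches every WNT target gene, and the values of SHH targets on these arrays are given below.

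WNT ligands bind Frizzled receptors and LRP co-receptors, halt the destruction complex that degrades beta-catenin, and so allow beta-catenin to activate transcription with DNA-binding factors of the TCF/LEF family. Many direct targets feed back on the pathway: some act inside the cell, some strip Frizzled receptors from the surface, some inactivate the ligand outside the cell, and Lgr receptors with their R-spondin ligands protect Frizzled from removal. In the ureter, the urothelium is the source of both SHH and WNT ligands, and the surrounding mesenchyme responds to both.

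The probes of the genes on which the results turn are shown here by the first 30 of their 60 bases, since each intensity below is the brightness of such an oligonucleotide. Sp5 and Lgr5 were the members that changed, Lgr5 had a second probe that was not well above background, and the Lef1 probes moved in opposite directions on the arrays. The positions are those of the array annotation on mm9, which names no exon or UTR. The bases run 5′ to 3′ as printed on the array.
Sp5: cagagctacagcatggtacgtttctgtaaa
Lgr5, brighter probe: catgtaaatacgtagtgcttgtaaatagat
Lgr5, dimmer probe: acctctagtgcttatatagaaacttgtgtg
Lef1, brighter probe: actgcaagcgccgacttccaaaaagaaagc
Lef1, dimmer probe: gtacaggtcccagaatgacagctgcctaca
The Sp5 probe lies at chr2:70315688-70315747. The Lgr5 probes lie at chr10:114887403-114887462 for the brighter and chr10:114900686-114900745 for the dimmer. The brighter Lef1 probe lies at chr3:130926200-130926259, and the dimmer is annotated over 18162 bases at chr3:130907851-130926012, far more than its own 60 bases.

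All 10 members were tested, and in 9 of them the control channel of each array exceeded an intensity of 100. The members did not move together. With limma, fitted over all 25976 probes tested, Sp5 was lower and Lgr5 was higher with cyclopamine at an adjusted p under 0.05, and the other 8 members did not pass. That is 1 of 10 members lower, where 0.861% of all genes tested were called lower, and 1 of 10 higher, where 0.438% were called higher. The same genes passed a filter on fold change, which asked that the control exceed 100 on each array and that both arrays change the same way by 1.5-fold or more. Among genes above that intensity on both arrays, 0.637% passed as lower and 0.212% as higher. At an unadjusted limma p under 0.05, 1 member (Sp5) was lower and 4 (Axin2, Znrf3, Rnf43 and Lgr5) were higher. Among all genes tested, 4.81% were lower and 4.22% higher at that limit. With the gene length trend described below removed, Nkd1, with a lower value, was under that limit and Rnf43 was not. The median log2 ratio of cyclopamine over control was 0.09 over the members and -0.01 over all genes tested. By direction, 4 members were lower on both arrays, 5 were higher on both and 1, Lef1, differed in direction. Of all genes tested, 29.0% had a lower value on each array, 28.6% a higher one on each and 42.4% opposite signs. The membership of this tally moved with the gene length correction given below. RNA was taken from whole explants, so fewer cells of a type and less RNA per cell cannot be told apart.

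**Figure D1:**
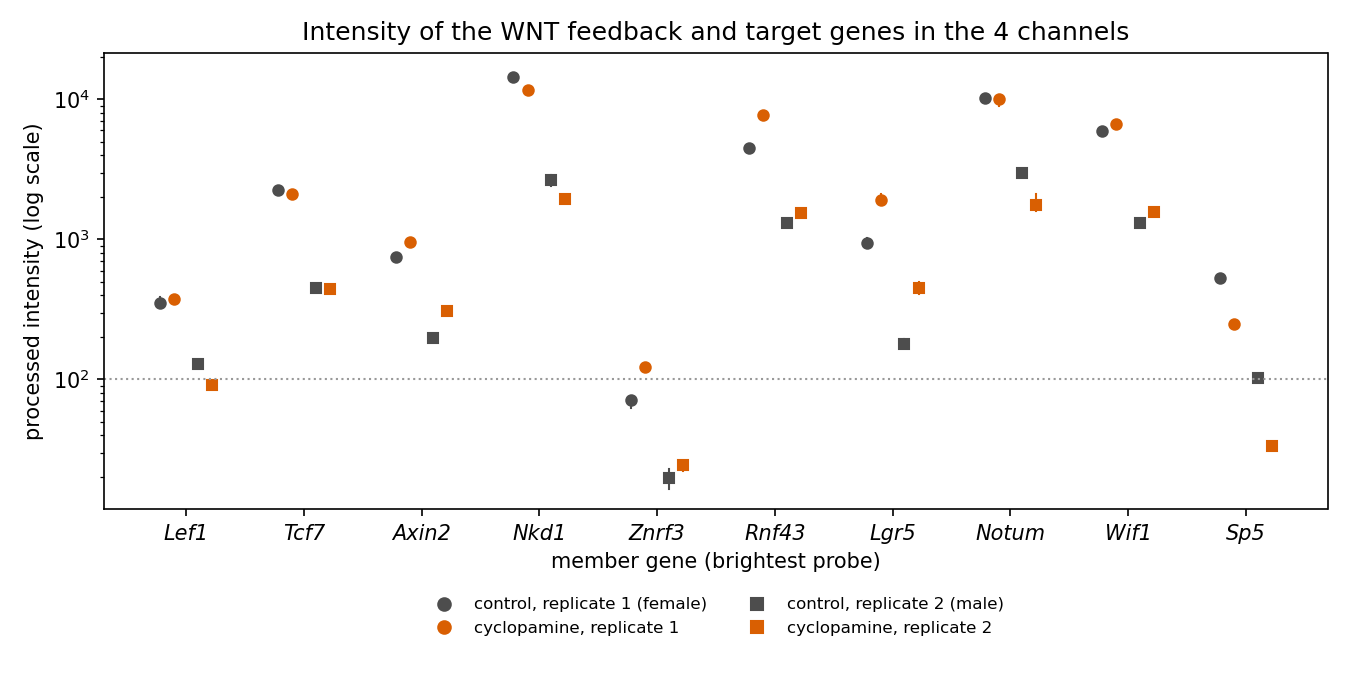
Processed intensity (log axis) of the brightest probe of each member in the 4 channels; circles are replicate 1 (female pools), squares replicate 2 (male pools), grey control and orange cyclopamine, vertical lines span the spots of a probe, and the dotted line is the intensity limit of 100. Sp5 is dimmer and Lgr5 brighter with cyclopamine on both arrays; levels of different genes are not comparable.

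Processed intensities were not scaled between the arrays, and the control channel of replicate 1 had a 75th percentile 5.32 times that of replicate 2. Levels are therefore compared only within an array, and a limit in intensity was harder to meet on replicate 2. Of the control spots, 69.6% on replicate 1 and 65.1% on replicate 2 were well above background.

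The transcription factors of the list were read first. Sp5, a zinc finger factor of the Sp family and a direct WNT target, gave an intensity of 528 for the control and 248 with cyclopamine on replicate 1. On replicate 2 the values were 102 and 33.4. Both arrays showed the lower value with cyclopamine, at 47.0% and 32.8% of the control. The spots of a probe, here and below, are repeats within an array and no replicates of the treatment. No spot of the probe overlapped between channels: on replicate 1 the control spots lay between 503 and 545 and the cyclopamine spots between 244 and 256, and on replicate 2 between 99.96 and 103 and between 31.5 and 35.4. The log2 ratio was -1.09 on replicate 1 and -1.61 on replicate 2, a mean of -1.35 ± 0.37 (SD, n = 2 arrays), which is 2.55-fold lower (limma adjusted p = 0.000159). The probe ranked 36 from the lowest of the 25976 probes tested by mean log2 ratio. The control of replicate 2 stood just inside the intensity limit of 100 for the fold filter, and Sp5 was no longer counted at a limit of 200.

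Lef1 and Tcf7 encode factors of the TCF/LEF family, which carry the WNT signal to DNA and are themselves WNT targets. The brighter Lef1 probe gave an intensity of 351 for the control and 377 with cyclopamine on replicate 1, against 129 and 91.0 on replicate 2. The dimmer probe had 170 and 218 on replicate 1, against 73.6 and 41.8 on replicate 2. Both probes thus gave a higher value in the female pool and a lower one in the male pool, though the brighter probe was lower on both arrays (-0.17 and -0.51 on the log2 scale) once the gene length trend described below was removed. The log2 ratios were 0.10 and -0.50 for the brighter probe, with a mean of -0.20 ± 0.43 (SD, n = 2, limma adjusted p = 0.824). They were 0.36 and -0.82 for the dimmer probe, with a mean of -0.23 ± 0.84 (SD, n = 2, limma adjusted p = 0.809). The mean change was thus smaller than the spread between the arrays. Read as red over green, both probes were brighter in red on either array, by 0.10 and 0.50 for the brighter probe and 0.36 and 0.82 for the dimmer on the log2 scale. Sex, dye orientation and replicate cannot be told apart in this split, and its source was not tested. Over all probes tested, 18.2% had a larger difference between the arrays than the brighter Lef1 probe.

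Tcf7 moved least. Its brighter probe had 2257 in the control and 2125 with cyclopamine on replicate 1, and 449 and 441 on replicate 2. Its other probe had 860 and 809 on replicate 1, and 121 and 121 on replicate 2. Neither probe separated the conditions on replicate 2. The mean log2 ratios were -0.06 ± 0.04 (SD, n = 2) and -0.04 ± 0.06 (SD, n = 2), with limma adjusted p of 0.960 and 0.967.

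The feedback inhibitors that act inside the cell are Axin2, a scaffold of the destruction complex and a standard readout of WNT activity, and Nkd1, which binds Dishevelled. The brighter Axin2 probe gave an intensity of 747 for the control and 960 with cyclopamine on replicate 1, and 199 and 308 on replicate 2. The dimmer probe had 83.1 and 162 on replicate 1, and 26.4 and 38.3 on replicate 2. Every spot used of both probes was brighter with cyclopamine. The log2 ratio of the brighter probe was 0.36 on replicate 1 and 0.63 on replicate 2, a mean of 0.49 ± 0.19 (SD, n = 2). The dimmer probe had 0.96 and 0.53, a mean of 0.75 ± 0.30 (SD, n = 2). Neither probe passed the test, with limma adjusted p of 0.462 and 0.105 (unadjusted 0.0335 and 0.00184). Axin2 also missed the fold filter, with 1.28-fold on replicate 1 and 1.55-fold on replicate 2.

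Nkd1 had probes that opposed each other on replicate 1 alone. The brighter probe had 14527 in the control and 11610 with cyclopamine on replicate 1, and 2659 and 1953 on replicate 2, with every spot ratio below 0. The dimmer probe had 889 and 994 on replicate 1, and 183 and 144 on replicate 2. The probes therefore gave the same direction on replicate 2 and opposite directions on replicate 1. Once the gene length trend described below was removed, both probes were lower on both arrays. Their log2 ratios were then -0.56 and -0.47 for the brighter probe, and -0.07 and -0.37 for the dimmer. The mean log2 ratio was -0.38 ± 0.09 (SD, n = 2, limma adjusted p = 0.630) for the brighter probe and -0.09 ± 0.36 (SD, n = 2, limma adjusted p = 0.930) for the dimmer.

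**Figure D2:**
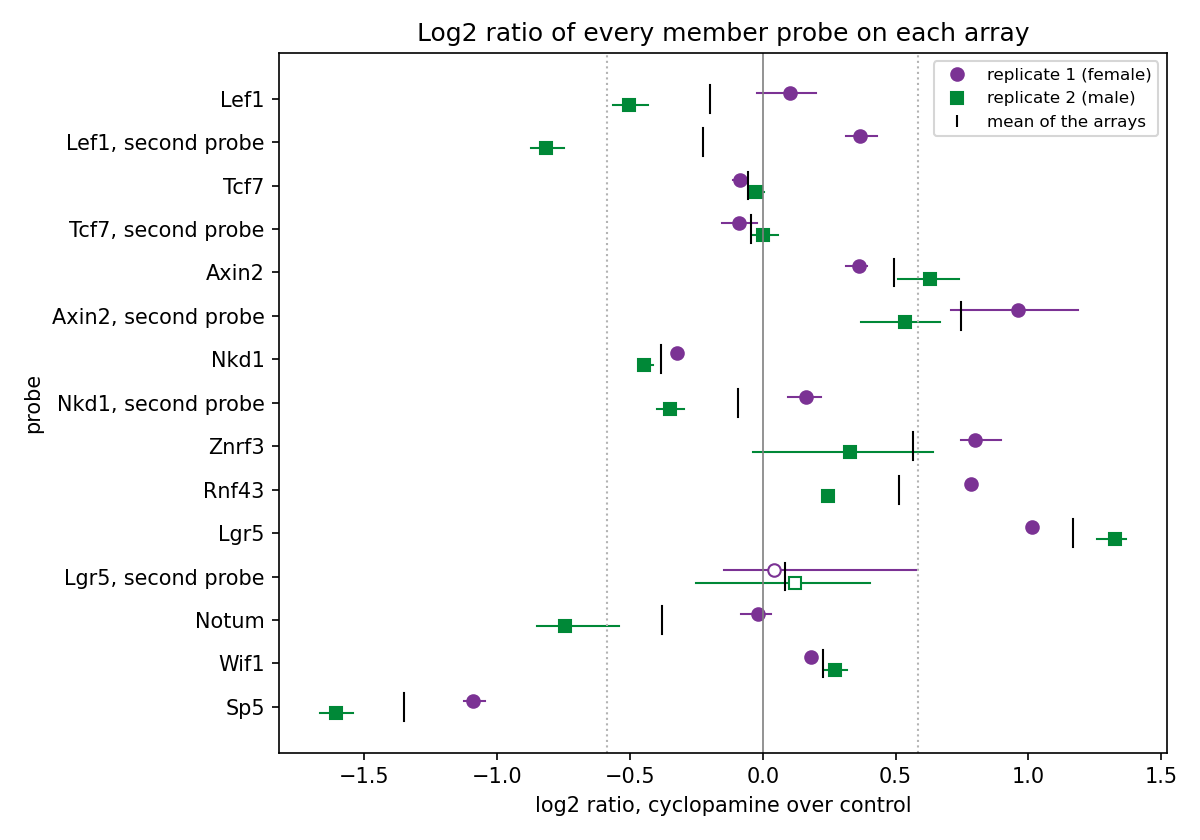
Log2 ratio of cyclopamine over control for all 15 member probes; circles are replicate 1, squares replicate 2, horizontal lines the range over the spots of the probe, black ticks the mean of the arrays, dotted lines 1.5-fold, and open symbols the Lgr5 probe that was not well above background. Sp5 lies left and Lgr5 right of the dotted lines on both arrays, and both Lef1 probes lie on opposite sides of 0.

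A group of 3 members belongs to the control of Frizzled at the cell surface. Znrf3 and Rnf43 encode membrane ubiquitin ligases that remove Frizzled, and Lgr5 encodes a receptor of R-spondins, whose binding keeps those ligases from acting. Lgr5 gave an intensity of 949 for the control and 1913 with cyclopamine on replicate 1. On replicate 2 the values were 181 and 452. The level with cyclopamine was thus 2.02 times and 2.50 times that of the control, and the spot ratios stayed between 1.00 and 1.03 on replicate 1 and between 1.26 and 1.37 on replicate 2 on the log2 scale. The mean log2 ratio was 1.17 ± 0.22 (SD, n = 2), which is 2.25-fold higher (limma adjusted p = 0.00139), and the probe ranked 28 from the highest of the 25976 probes tested. The dimmer Lgr5 probe was not well above background in any spot of any channel, with intensities of 3.23 and 3.33 on replicate 1 and 1.20 and 1.30 on replicate 2, so it gives no fold. Averaging both probes, as one alternative did, brought Lgr5 to a log2 ratio of 0.63 with an adjusted p of 0.209.

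The ligase genes both had higher values with cyclopamine, without passing the test. Rnf43 had 4513 in the control and 7761 with cyclopamine on replicate 1, and 1313 and 1555 on replicate 2. Its log2 ratios of 0.78 and 0.24 gave a mean of 0.51 ± 0.38 (SD, n = 2, limma adjusted p = 0.434), and 1.5-fold was reached on replicate 1 alone. Znrf3 was dim, with 70.8 and 123 on replicate 1 and 19.6 and 24.7 on replicate 2. Its log2 ratios of 0.80 and 0.33 gave a mean of 0.56 ± 0.33 (SD, n = 2, limma adjusted p = 0.341). Znrf3 was the member outside the fold filter, because its control intensity was under 100 on both arrays. On replicate 2 its spot ratios ran from -0.04 to 0.64, so the channels overlapped within the array.

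Notum, an extracellular enzyme that strips the lipid from WNT proteins, and Wif1, a secreted protein that binds WNT proteins, act on the ligand. Notum gave an intensity of 10241 for the control and 10123 with cyclopamine on replicate 1, and 2972 and 1773 on replicate 2. The channels overlapped in the female pools and not in the male pools: the log2 ratio was -0.02 on replicate 1 and -0.75 on replicate 2, a mean of -0.38 ± 0.51 (SD, n = 2, limma adjusted p = 0.643). Whether the arrays differ could not be tested with 1 array per sex. Wif1 had 5921 and 6714 on replicate 1, and 1309 and 1579 on replicate 2, so every spot was brighter with cyclopamine. The mean log2 ratio was 0.23 ± 0.06 (SD, n = 2, limma adjusted p = 0.793), with arrays that lay close together.

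The non-coding gene Notumos, annotated antisense next to Notum and no member of the list, fell further than any member. Its intensity was 506 in the control and 169 with cyclopamine on replicate 1, and 89.5 and 9.96 on replicate 2. The log2 ratios of -1.58 and -3.17 gave a mean of -2.38 ± 1.12 (SD, n = 2), and limma called it lower (adjusted p = 1.46e-09). It missed the fold filter because of the control intensity on replicate 2. Notum itself was not called, and the difference between both genes was not tested.

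**Figure D3:**
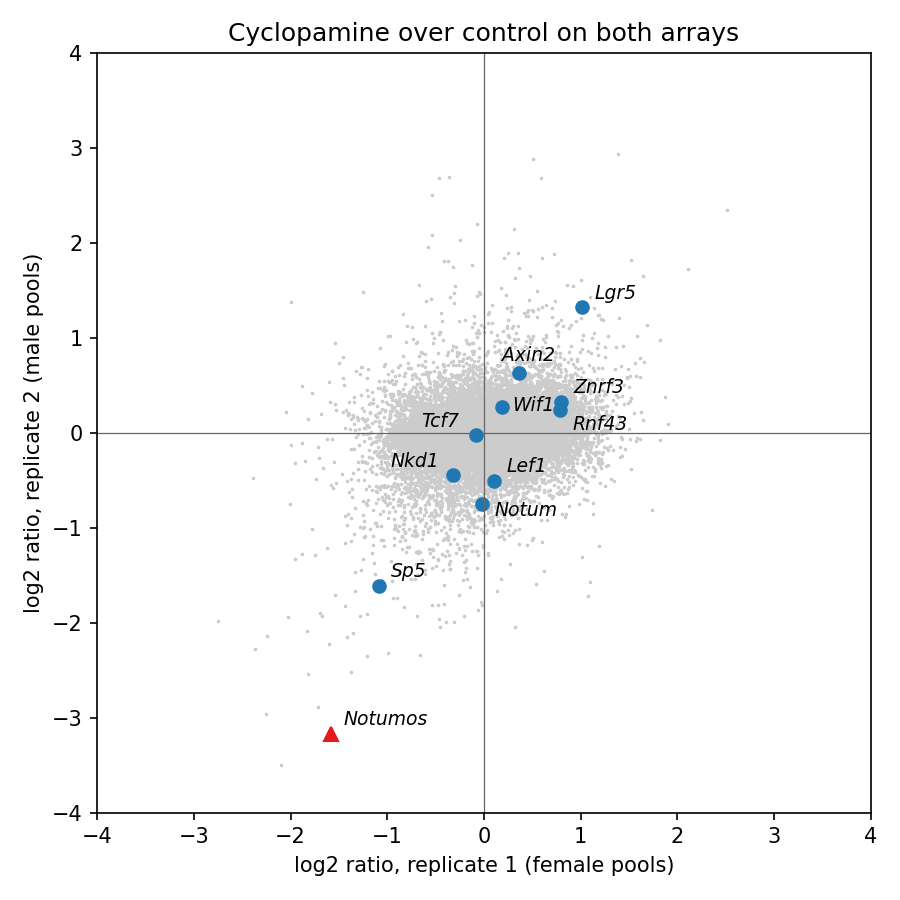
Log2 ratio of cyclopamine over control on replicate 1 (horizontal) against replicate 2 (vertical) for the 25976 probes tested (grey, of which 3 lie outside the axes), the brightest probe of each member (blue) and Notumos (red triangle). Sp5 and Lgr5 lie at the edges of the cloud in opposite corners, and the other 8 members lie within it.

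Ordered by their mean log2 ratio, the members ran from Sp5 (-1.35) through Nkd1 (-0.38), Notum (-0.38), Lef1 (-0.20), Tcf7 (-0.06), Wif1 (0.23), Axin2 (0.49), Rnf43 (0.51) and Znrf3 (0.56) to Lgr5 (1.17). The interval between the arrays did not overlap that of the neighbour for Sp5 and Nkd1, for Tcf7 and Wif1, for Wif1 and Axin2, and for Znrf3 and Lgr5. All other neighbours overlapped. The order between them has no replicate beyond these arrays, and limma's standard error was 0.23 for each of the 10 members.

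A property of replicate 1 bears on the long genes of the list. Across 22463 tested probes with a known gene length, which are no independent replicates, the log2 ratio rose with genomic length on replicate 1 (Spearman's rho 0.44) and hardly on replicate 2 (rho 0.035). The trend at the length of a member ranged on replicate 1 from -0.28 for Sp5, the shortest at 2804 bases, to 0.31 for Znrf3, the longest at 168519 bases, and was 0.29 for Lgr5. With the trend removed on each array, Sp5 was at -0.81 and -1.58 and Lgr5 at 0.72 and 1.33, and limma still called both (adjusted p = 0.00577 and 0.0141). The median of the members turned from 0.09 to -0.02. Of the members, 4 then had a lower value on each array, 4 a higher one and 2 opposite signs: Lef1 became lower on both, Wif1 (-0.04 and 0.25) and Notum (0.14 and -0.74) became opposite. The source of the trend was not tested.

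The promoters of 7 members were on hand in RefSeq (GRCm38.p6), as windows from 250 bases before to 50 bases after a gene start. Exact matches to the TCF/LEF letters CTTTGAA or CTTTGAT or CTTTGTT and to the GLI letters ACCACCCA, GLI factors being the effectors of SHH, were searched on both strands. Sp5 held 2 TCF/LEF matches. A CTTTGAT started 104 bases before the gene start. A CTTTGTT on the other strand, printed as its reverse complement AACAAAG, started 222 bases before the gene start. The other 6 members held none, so 1 of 7 members had a match where 15.7% of 27025 genes did. No member held the GLI letters, found in 1.72% of genes. The 250 bases upstream are shown for Sp5, the member that fell most, and for Axin2, the standard WNT target, with the matches in capitals.
Sp5 promoter: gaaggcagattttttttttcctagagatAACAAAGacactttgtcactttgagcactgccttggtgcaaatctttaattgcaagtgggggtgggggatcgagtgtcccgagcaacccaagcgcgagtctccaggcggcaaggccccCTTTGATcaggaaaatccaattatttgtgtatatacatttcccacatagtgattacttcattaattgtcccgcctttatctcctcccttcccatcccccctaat
Axin2 promoter: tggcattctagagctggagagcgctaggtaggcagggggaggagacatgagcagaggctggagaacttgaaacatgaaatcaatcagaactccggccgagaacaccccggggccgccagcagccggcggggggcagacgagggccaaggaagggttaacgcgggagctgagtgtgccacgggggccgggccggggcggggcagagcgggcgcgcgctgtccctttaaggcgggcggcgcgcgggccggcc
The Sp5 stretch is chr2:70474673-70474922 and the Axin2 stretch chr11:108920099-108920348, both on the plus strand of GRCm38.p6. A match is a run of letters and no shown binding site, and its absence from these windows says nothing of other regulatory regions.

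Other WNT pathway genes, taken from chosen lists that do not cover the whole pathway, gave no call. Of 54 other WNT pathway genes tested (of 58 on the array), limma called 0 in either direction and 0 passed the fold filter, and their median log2 ratio was 0.09. At an unadjusted p under 0.05, 5 were lower and 3 higher, where 4.81% and 4.22% of all genes tested were. By array, their median reached 0.24 on replicate 1 and -0.02 on replicate 2. Of 5 R-spondin and Lgr genes tested, Rspo1, an activating ligand of Lgr receptors, came closest. It had 203 in the control and 278 with cyclopamine on replicate 1, and 19.4 and 45.6 on replicate 2 (mean log2 ratio 0.84 ± 0.55, SD, n = 2, limma adjusted p = 0.0511). Rspo2 had the lowest ratio of that group (-0.57 ± 0.48, SD, n = 2, adjusted p = 0.342).

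Among 10 other WNT targets tested, the extremes were Tnfrsf19, a receptor of the TNF family (0.57 ± 0.18, SD, n = 2), and Sox9, a transcription factor (-0.66 ± 0.26, SD, n = 2). Among 12 nuclear effectors they were Ctnnb1, which encodes beta-catenin (0.50 ± 0.39), and Tcf7l1, a TCF factor known as a repressor (-0.43 ± 0.19). Among 13 genes of the destruction complex and its regulators they were Tnks2, a tankyrase that marks Axin for degradation (0.45 ± 0.47), and Btrc, the substrate receptor for beta-catenin (-0.11 ± 0.07). Among 14 ligand and secretion genes they were Wnt7b (0.35 ± 0.05) and Wnt2b (-0.52 ± 0.55). None of these 8 genes passed limma, with adjusted p between 0.193 and 0.909.

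**Figure D4:**
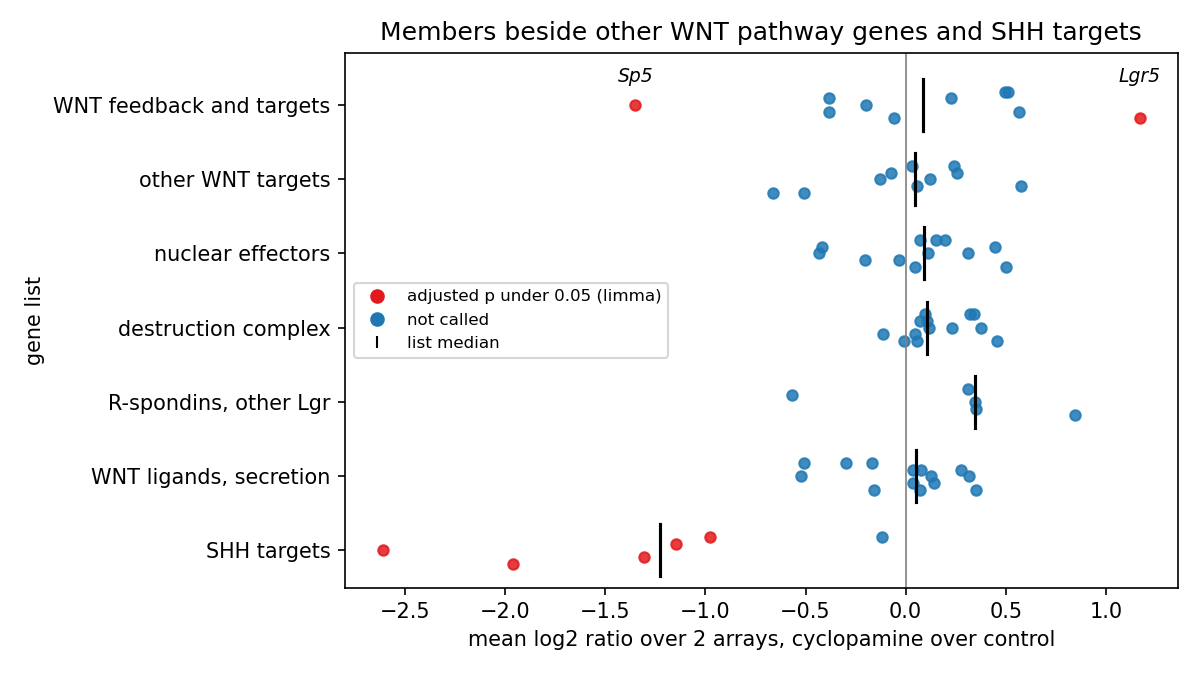
Mean log2 ratio of cyclopamine over control (horizontal) for the tested genes of each list (rows), with genes at an adjusted p under 0.05 in red, other genes in blue and the list median as a black tick. Among the WNT lists, Sp5 and Lgr5 are red, and 5 of 6 SHH targets are red on the lower side.

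Targets of SHH were read on the same arrays. Of 6, limma called 5 lower and none higher, with a median log2 ratio of -1.23. Of all genes tested, 0.861% were called lower and 0.438% higher. The list was chosen with earlier results of these data known, so its fall is no independent test of which treatment was given. Gli1, a factor induced by SHH, fell from 7771 to 2182 on replicate 1 and from 1236 to 290 on replicate 2 (-1.96 ± 0.18, SD, n = 2, limma adjusted p = 1.93e-08). Ptch1, the SHH receptor and a feedback target, fell from 785 to 360 and from 207 to 73.7 (-1.31 ± 0.25, SD, n = 2, adjusted p = 0.000254). Sp5, which is not on that list, had -1.35, and a likeness of Sp5 to SHH targets was not tested. Foxl1 (-2.61 ± 0.50, SD, n = 2) and Foxf1 (-0.98 ± 0.41, SD, n = 2) were also called lower. So was Hhip (-1.15 ± 1.19, SD, n = 2), whose log2 ratio was -0.31 on replicate 1 and -1.99 on replicate 2 and which missed the fold filter.

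Markers of the cell types of the explants were set beside the members. Aldh1a2, the marker of the lamina propria, had a log2 ratio of -0.62 and -0.65 and passed the fold filter as lower, with a limma adjusted p of 0.219. The study names Aldh1a2 as an SHH-dependent gene, so fewer lamina propria cells and less expression per cell cannot be told apart by it. Of 5 smooth muscle markers limma called 0 (2 lower at an unadjusted p under 0.05), with a median of -0.25. Their summed intensity was 299319 in the control and 291239 with cyclopamine on replicate 1, and 83777 and 52905 on replicate 2. Acta2 alone gave 41995 and 22210 of the sums on replicate 2, so the sums mostly follow that gene. Of 7 urothelium markers limma called 0 (1 higher at an unadjusted p under 0.05) and 5 were higher on both arrays, where 28.6% of all genes tested were. The urothelium median was 0.14, with sums of 312318 and 343739 on replicate 1, and 72851 and 78036 on replicate 2. At an unadjusted limma p under 0.05, 4.81% of all genes tested were lower and 4.22% higher. The 3 endothelium markers had opposite signs on the arrays, with a median of 0.65 on replicate 1 and -0.17 on replicate 2. Of 3 leukocyte markers limma called 0 (0 at an unadjusted p under 0.05), with a median of 0.17. Of the 3 kidney markers tested limma called 0 (0 at an unadjusted p under 0.05). The lowest and highest mean log2 ratios were -0.55 (Cnn1) and 0.00 (Smtn) for smooth muscle, -0.02 (Upk1a) and 0.47 (Trp63) for urothelium, 0.19 (Cdh5) and 0.30 (Pecam1) for endothelium, -0.24 (Cd68) and 0.20 (Adgre1) for leukocytes, and -0.19 (Cited1) and 0.30 (Six2) for kidney. The part of cell composition in the changes of Sp5 and Lgr5 was not tested.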

How the data were processed

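Each of the 2 samples is a two-colour array of a cyclopamine pool and a control pool, with the dyes swapped between them. The authors' deposited scanner files hold spot intensity values, which per the file headers were background-subtracted, detrended, given surrogates where dim and dye-normalised (linear and LOWESS) in Agilent Feature Extraction 12.2.0.7; the submitters' processing notes name 10.7.3.1. The authors' deposited series table holds a score per probe, a signed fold change with 1 decimal, used here as an alternative. Flags for outlier and background are deposited software output.

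Spots flagged as outliers (2.89% and 3.15%) were omitted, none was saturated, and the up to 4 spots of a probe were averaged as log2 values. Ratios were turned to cyclopamine over control. In R 4.3.3, limma 3.58.1 (lmFit, then eBayes, with +1 and -1 for the dye orientation) tested 25976 probes with at least 0.5 of their spots well above background in the control on both arrays or in cyclopamine on both arrays; p-values were Benjamini-Hochberg adjusted over all of them, with a limit of 0.05. With 1 residual degree of freedom the test rests mostly on a variance pooled over all probes tested, and little on a gene's own spread between the arrays. The spread between the arrays also holds sex and dye orientation. Only more arrays would narrow the standard error. The fold filter has no p-value and approximates that of the methods, which do not give the scale of the intensity. Of the probes, 28322 were named through their accession in RefSeq, and the members through the array's own names. Of the steps, the limma fit alone was run on simulated data, with normal noise alike on both arrays and no gene length trend. The arrays here differ from that setting. The members and lists were chosen with earlier results of these data known. Named outside the members were Notumos, and from each list the genes called or past the filter, otherwise the extreme in each direction. The glia and neuron markers and part of the kidney markers are not reported here. Alternatives were background correction, the series table, filters, probe choice, unpaired channels, variance prior, gene length and leaving out an array.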

Additional observations from a re-analysis of the deposited data

Results flagged for a closer look

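Probes of 3 members moved in opposite directions in the female pools of replicate 1 and the male pools of replicate 2. With 1 array per sex, and with the dyes swapped between them, the difference was not tested. The brighter Lef1 probe had a log2 ratio of 0.10 in the female and -0.50 in the male pools, a difference of 0.61. The dimmer Lef1 probe had 0.36 and -0.82, a difference of 1.18. The dimmer Nkd1 probe had 0.16 and -0.35, a difference of 0.51, while the brighter Nkd1 probe was lower on both arrays. The dimmer Tcf7 probe had -0.09 and 0.00, a difference of -0.088 that was of the size of its spread over spots (SD 0.06 and 0.05). In all, 4 of the 14 member probes tested had opposite signs, against 41.9% of all probes tested. With the gene length trend removed on each array, the brighter Lef1 probe (-0.17 and -0.51), the dimmer Nkd1 probe (-0.07 and -0.37) and the dimmer Tcf7 probe (-0.22 and -0.03) were lower on both arrays, and of the 4 the dimmer Lef1 probe (0.09 and -0.82) was still opposite.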

How the results depend on the processing

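Over the alternatives, all 10 members kept the direction of their mean in every fit that used both arrays. Sp5 was called lower by limma in each fit but those of the series table and of the unpaired channels, and Lgr5 was called higher in each but those and the mean over all probes of a gene. With the series table, which is rounded to 1 decimal, limma called 0 members lower and 0 higher (adjusted p = 0.511 for Sp5 and Lgr5, with 4 members at an unadjusted p under 0.05), and 0 of all probes. Without the pairing of the channels on an array (no replicate block, each of 4 channels a sample), it called 0 lower and 0 higher (adjusted p = 0.992, with 2 members, Sp5 and Lgr5, at an unadjusted p under 0.05). With the mean over all probes, 0 members were called higher and 0 passed the fold filter as higher, because the dim Lgr5 probe entered the mean. A control intensity over 200 left 0 members past the filter in either direction, since replicate 2 was under it for both genes. Leaving out an array gave 1 to 2 members past the filter as lower (Notum joined Sp5 without replicate 1) and 2 to 2 as higher (Axin2 joined Lgr5 without replicate 1, Rnf43 without replicate 2), while the filter on a single array passed 1.68% of genes as lower and 0.585% as higher without replicate 1, and 10.3% and 8.02% without replicate 2. The median of the members was 0.11 without replicate 1 and 0.14 without replicate 2, and turned to -0.017 with the gene length trend removed. With normexp and loess, limma called 42 probes lower and 12 higher in place of 200 and 118, with Sp5 (adjusted p = 0.0194) and Lgr5 (adjusted p = 0.0192) among them. Signal over background limits the dimmer Lgr5 probe, and 2 arrays limit every member.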
